A study of Drosophila melanogaster with 55 samples.

Results

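The loci described here are places in the genome of Drosophila melanogaster where heterochromatin protein 1 (HP1) was found in flies mutant for both Top3b and AGO2 but not in flies mutant for AGO2 alone. HP1 was mapped by ChIP-seq (chromatin immunoprecipitation followed by sequencing) in adult heads, and each library was deposited as a list of islands, which are stretches enriched over input DNA. The members are the islands with a score of 200 or more in 4 of the 33 libraries that have a list, out of 55 samples in the series, on all 7 chromosomes and arms that the lists hold. A locus was taken as having HP1 in the double mutant and not in AGO2 1-1-7 when it lay inside islands of both lists of the first and of neither list of the second. By this rule 3557 stretches with 4600.7 kb in all were found, against 252 stretches with 128 kb for the opposite rule.

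Both groups carried AGO2 1-1-7, which the study describes as a null allele made with CRISPR, with one deletion in the promoter and a shorter one in an exon. The double mutant, Top3b26;AGO2 1-1-7, carried in addition Top3b26, an allele made by remobilising a P-element. By their labels the groups differ in the Top3b allele and share the AGO2 allele. No source used here says whether the lines were otherwise alike in genetic background. Such differences cannot be told apart from that of the Top3b allele. Heads came from adults of 1-2 weeks reared at 25 °C, and each group had 2 libraries, called repeats in the labels. No source used here gives the sex of the flies. Nothing in these island lists tests that the tissue was head, and heads hold many cell types, so fewer cells with HP1 at a locus and less HP1 in each cell cannot be told apart.

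HP1 is the protein that reads histone H3 methylated on lysine 9 and holds chromatin in a compact, silent form. In flies it is most abundant near the centromeres, on the Y chromosome and on the small chromosome 4, where genes lie among satellite repeats and transposable elements. AGO2 is the Argonaute that short interfering RNAs guide to their targets in the silencing complex RISC. Top3b is a topoisomerase with DNA and RNA substrates, and it is tied to RISC through its partner Tdrd3. The study asked how the loss of both proteins together bears on heterochromatin compared with the loss of either.

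Some of the longest loci were made of tandem repeats, and pieces of them are printed here because they show what kind of sequence had HP1 in the double mutant and not in AGO2 1-1-7. The centres of the longest stretches in the pericentric part of 3R, each of 200 bases from the plus strand of dm6, had no annotated gene. In these lines capitals mark each copy of the word CCCGTACT, the most frequent word of 8 letters in the first stretch.
chr3R:288351-288550: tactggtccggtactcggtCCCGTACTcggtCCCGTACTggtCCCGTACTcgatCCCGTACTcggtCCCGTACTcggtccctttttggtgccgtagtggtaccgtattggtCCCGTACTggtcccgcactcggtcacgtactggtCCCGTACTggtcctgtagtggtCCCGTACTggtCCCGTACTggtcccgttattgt
chr3R:502501-502700: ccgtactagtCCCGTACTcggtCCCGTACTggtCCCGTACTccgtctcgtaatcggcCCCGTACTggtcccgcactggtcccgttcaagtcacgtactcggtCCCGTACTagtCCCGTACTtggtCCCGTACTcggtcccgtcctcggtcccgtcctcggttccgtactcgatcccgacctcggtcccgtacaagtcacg
The pieces hold 9 and 7 copies of the word. The repeat has a period of 11 or 12 bases, and this unit is known as the dodeca satellite, a repeat of the centromeric region of chromosome 3. The longest stretch of pericentric 2L repeated with a period of 1378 bp. The next lines show 100 bases of it and the 100 bases one period further on. Capitals mark the 59 positions that are identical when the pieces are compared base by base with no gap. Left of the long run of capitals the pieces share a sequence shifted by a few bases, so the capitals understate their likeness.
chr2L:22431111-22431210: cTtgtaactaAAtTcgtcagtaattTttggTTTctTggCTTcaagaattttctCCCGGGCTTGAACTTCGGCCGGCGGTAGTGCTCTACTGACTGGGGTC
chr2L:22432489-22432588: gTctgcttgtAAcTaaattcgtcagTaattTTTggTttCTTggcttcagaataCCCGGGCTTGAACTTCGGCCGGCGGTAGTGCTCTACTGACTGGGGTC
The last piece comes from the longest pericentric stretch that had HP1 in all 3 libraries of the control line w1118 and in none of the 4 mutant lists. It lies in an intron of lovit and holds no copy of the word. Of 2224 windows of 100 bp with at least 2 copies of the word, 2218 lie on 3R. The absence of the word from a piece of 3L therefore says nothing about HP1.
chr3L:25353101-25353300: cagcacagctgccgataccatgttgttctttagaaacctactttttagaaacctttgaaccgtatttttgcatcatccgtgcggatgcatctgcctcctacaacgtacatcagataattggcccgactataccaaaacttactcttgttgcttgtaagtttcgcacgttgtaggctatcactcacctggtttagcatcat

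The targeted genes were examined first. For AGO2 (3L, 15554113 to 15561042) each of the 4 lists had 38.8% of the gene inside islands. For Top3beta (X, 6284138 to 6287990) the covered share was 0% and 7.53% in the double mutant and 4.93% and 7.53% in AGO2 1-1-7. HP1 coverage of a whole gene does not show its deletion, so these values leave the genotype labels unchecked.

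After the filter, the lists of AGO2 1-1-7 held 3504 and 5029 islands and those of the double mutant 4468 and 6312. The share of islands that reached a score of 200 was 84.7% and 56.8% in AGO2 1-1-7 and 84.9% and 84.5% in the double mutant, so replicate 2 of AGO2 1-1-7 stood apart. The depth of the libraries is unknown, and no interval for counting error could be computed. The lists did not group cleanly by line. The 2 double mutant lists shared 69.1% of their joined length, and the 2 AGO2 1-1-7 lists shared 47.3%. However, double mutant replicate 2 shared more, 77.1%, with w1118 replicate 1, and double mutant replicate 1 shared 75.7% with the w1118 library of a separate complementation set. AGO2 1-1-7 replicate 2 shared 56.4% with Top3b26 replicate 1. The labels name no batch, so the part of a batch in these likenesses was not tested. The lists also differed in the smallest distance between islands. It was 700 bp in the 4 lists, in replicate 1 of w1118 and of Top3b26 and in the complementation w1118 list. It was 1100 bp in replicates 2 and 3 of w1118 and of Top3b26. How far this bears on the likenesses, or on later values from those lists, was not tested.

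HP1 covered about 2 times as much of pericentric heterochromatin in the double mutant as in AGO2 1-1-7. On chromosomes 2 and 3 the AGO2 1-1-7 lists covered 27.3% and 32.6% of the pericentric bases and the double mutant lists 63.0% and 58.3%. Both double mutant libraries thus lay above both AGO2 1-1-7 libraries, and close to the 57.3% to 59.7% of the 3 w1118 lists. The difference of 30.7 percentage points between means of 60.7% ± 3.30 and 30.0% ± 3.71 (SD, n = 2 each) exceeded the SD of both groups. A two-sided exact permutation test over the 4 libraries gave p = 0.333, the smallest that 2 libraries against 2 allow (adjusted p = 0.556 over the 5 compartments), so this exact test cannot pass 0.05 here.

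The Y chromosome behaved like the pericentric arms, and chromosome 4 did not show a difference of that size. On Y, coverage was 17.2% and 22.5% in AGO2 1-1-7 and 51.8% and 42.4% in the double mutant. The groups thus differed by 27.3 points, with p = 0.333 by exact permutation and 0.556 after adjustment. The sex of the flies sets how much Y chromatin a library holds, and a difference in sex and a difference in HP1 on Y cannot be told apart here. On chromosome 4, coverage was 60.6% and 55.2% in AGO2 1-1-7 and 69.9% and 60.8% in the double mutant, a difference of 7.43 points (exact permutation p = 0.333). The groups on chromosome 4 almost touched, at 60.6% and 60.8%, and the difference was 2.87 points without double mutant replicate 1, 4.77 without AGO2 1-1-7 replicate 2 and 12 without double mutant replicate 2. The difference in pericentric coverage exceeded that on chromosome 4 by 23.3 points and that in euchromatin of chromosomes 2 and 3 by 29.6 points. Each of these contrasts had an exact permutation p of 0.333, the smallest possible, in a family of 2 tests.

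In euchromatin of chromosomes 2 and 3 and on X, each taken as a whole, the groups overlapped. HP1 covered 2.02% and 4.83% of euchromatin of chromosomes 2 and 3 in AGO2 1-1-7, and 3.6% and 5.39% in the double mutant (difference 1.07 points, exact permutation p = 0.667). Without AGO2 1-1-7 replicate 1 this difference turned to -0.34 points. On X the values were 3.66% and 8.21% against 6.97% and 9.55% (difference 2.32 points, exact permutation p = 0.667), which was 0.045 points without AGO2 1-1-7 replicate 1. The base of X differed from the whole, with both double mutant libraries above both AGO2 1-1-7 libraries. From 22000001 to 23000000, AGO2 1-1-7 had 12.5% and 12.8% and the double mutant 30.2% and 26.5%. From 23000001 to 23542271 the values were 35.2% and 42.0% against 69.9% and 65.2%. In all, 5 of 24 windows of X had this order.

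**Figure D1:**
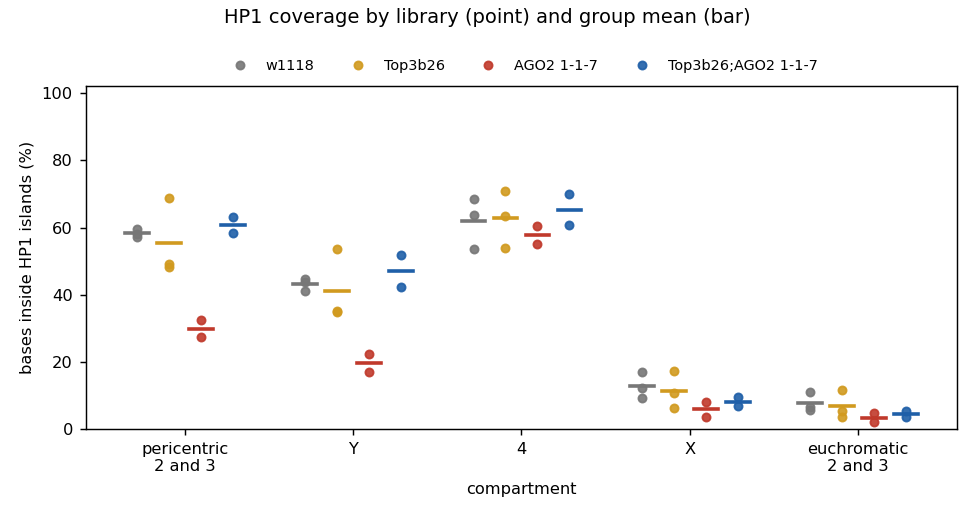
Percentage of bases inside HP1 islands (vertical axis) in 5 compartments (horizontal axis), with 1 point per library and a bar at each group mean. On the pericentric arms and Y both AGO2 1-1-7 points, at most 32.6%, lie below both double mutant points, while on X and in euchromatin the points of these 2 groups overlap.

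Length with HP1 in both double mutant lists and in neither AGO2 1-1-7 list was found mainly near the centromeres. Of the 4600.7 kb, 2845 kb lay on the pericentric arms of chromosomes 2 and 3, 702.3 kb in euchromatin of the same arms, 610.3 kb on Y, 390.4 kb on X and 52.7 kb on chromosome 4. This was 19% of all pericentric bases, 16.6% of Y and 3.91% of chromosome 4. Of the pericentric length that both double mutant lists covered, 35.1% was in neither AGO2 1-1-7 list. This share was 41.6% on Y, 29.2% on X, 24.3% in euchromatin, 6.75% on chromosome 4 and 31.5% over the whole assembly. Both double mutant lists covered 14590.4 kb in all, of which 8116.2 kb was pericentric, so most of their shared HP1 lay there too. The opposite pattern, HP1 in both AGO2 1-1-7 lists and in neither double mutant list, covered 2.4 kb of pericentric heterochromatin and 0.2 kb of Y. The 2.4 kb became 69.6 kb without AGO2 1-1-7 replicate 2, 26.1 kb without double mutant replicate 1 and 12.5 kb without AGO2 1-1-7 replicate 1, and the value on Y reached at most 7.4 kb, without double mutant replicate 1. The 4 lists chose these loci, so the lengths are a description and carry no test. For scale, the 2 double mutant lists differed from each other over 1918.2 kb of pericentric heterochromatin and the 2 AGO2 1-1-7 lists over 2242.3 kb. AGO2 1-1-7 replicate 2 limited the length most, since without it 4304.7 kb of pericentric heterochromatin met the rule, with 1485.9 kb of euchromatin and 704.5 kb of X. Without double mutant replicate 1 the lengths were 1706.9 kb in euchromatin and 837.8 kb on X, and without replicate 2 they were 998.1 kb on Y and 598.1 kb on X. On chromosome 4 leaving out any 1 library gave 80.8 to 126.3 kb.

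Low islands in AGO2 1-1-7 made up little of this length. Of the 2845 kb, 179 kb (6.29%) lay inside an AGO2 1-1-7 island with a score under 200, and 2666 kb lay inside no AGO2 1-1-7 island of any score. The share was between 5.67% and 6.76% in the other compartments.

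All 4 pericentric arms had such loci in like proportion. They took 21.6% of pericentric 2L, 18.1% of 2R, 19.8% of 3L and 18.1% of 3R. In windows of 100 kb, both double mutant libraries lay above both AGO2 1-1-7 libraries in 147 of 150 pericentric windows, and in 36 of 37 windows of Y but 5 of 14 of chromosome 4. The exceptions among pericentric windows were on 3L. In 1 of them, 3L 26900001 to 27000000, the double mutant lists had no HP1, as did all 3 w1118 lists, while AGO2 1-1-7 replicate 1 covered 15.9% and replicate 2 covered 0%. In another, 3L 24600001 to 24700000, the double mutant lists covered 30.5% and 21.2% and the AGO2 1-1-7 lists 60.5% and 20.8%.

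**Figure D2:**
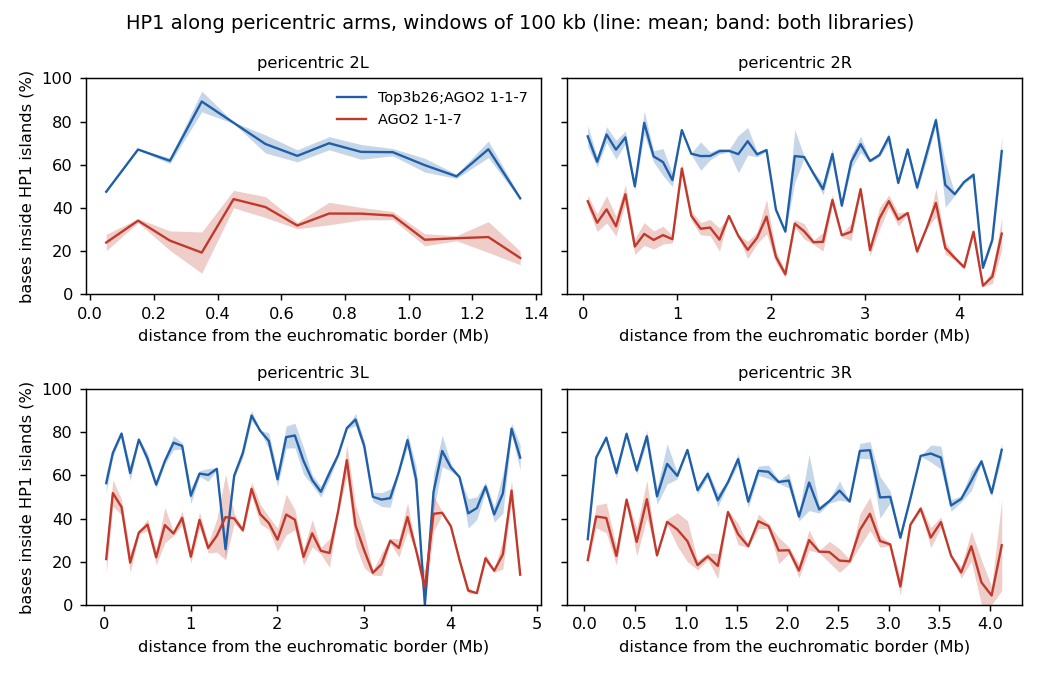
Percentage of bases inside HP1 islands (vertical axis) in windows of 100 kb along each pericentric arm, by distance from the border with euchromatin in Mb (horizontal axis), with the mean of each group as a line and its 2 libraries as the edges of a band. The line of the double mutant runs above that of AGO2 1-1-7 along all 4 arms except in 2 windows of 3L.

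More of the added pericentric length lay in loci that were wider than in AGO2 1-1-7 than in loci absent from it. Islands of both double mutant lists formed 2065 pericentric loci. Of these, 644 (31.2%) had no base inside an AGO2 1-1-7 island, 1012 (49%) were covered in part, and 409 (19.8%) were covered throughout by 1 or both AGO2 1-1-7 lists. Loci that were partly covered had a median of 4400 bp, against 1400 bp for those with no AGO2 1-1-7 island. The partly covered loci held 1715.7 kb of the length with no AGO2 1-1-7 island and the wholly uncovered ones 1129.3 kb. The uncovered loci held more in other compartments except X, with 374.7 kb against 327.6 kb in partly covered loci of euchromatin, 311.5 kb against 298.8 kb on Y and 39.2 kb against 13.5 kb on chromosome 4, but 162.2 kb against 228.2 kb on X. Of 153 loci on chromosome 4, 112 (73.2%) were covered throughout in AGO2 1-1-7, 23 in part and 18 (11.8%) not at all.

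Islands compared pair by pair gave the same direction in each of the 4 pairs of libraries in pericentric heterochromatin, but not in euchromatin or on X. Between 53.3% and 58.5% of pericentric double mutant islands had under 50% of their length inside islands of an AGO2 1-1-7 list. The reverse share, AGO2 1-1-7 islands missing from a double mutant list, was between 0.312% and 2.93%. Between the replicates of a group the share was 7.01% and 10.4% in the double mutant and 18.5% and 24.3% in AGO2 1-1-7. Euchromatin gave 36.6% to 74.5% for the first share and 20.6% to 55.6% for the reverse, beside 27.8% and 69.0% between AGO2 1-1-7 replicates, so there the shares between lines overlapped those between replicates. For double mutant replicate 1 and AGO2 1-1-7 replicate 2 the direction was reversed. The shares of this pair were 36.6% against 55.6% in euchromatin and 38.1% against 52.0% on X.

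The lists of w1118, which the rule did not use, show how far the loci are those of normal flies. As given above, replicates 2 and 3 of w1118 had a smallest distance between islands of 1100 bp, against 700 bp in the 4 lists. Of the 2845 kb of pericentric loci, 74.7% lay inside islands of all 3 w1118 lists, 22.6% inside islands of 1 or 2 of them and 2.72% inside none. Taken from the other side, 2402.4 kb of pericentric heterochromatin had HP1 in all 3 w1118 lists and in neither AGO2 1-1-7 list. Of this, 88.4% had HP1 in both double mutant lists, 9.31% in 1 and 2.26% in neither. On Y the share in both double mutant lists was 90.2% of 495.1 kb, and on chromosome 4 it was 72.3% of 49.5 kb. In euchromatin it was 50.4% of 990.9 kb, with 22.7% in neither double mutant list. By comparison, where HP1 was in all w1118 lists and also in both AGO2 1-1-7 lists, both double mutant lists had it over 99.7% of the pericentric length and 92.5% of the euchromatic length.

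**Figure D3:**
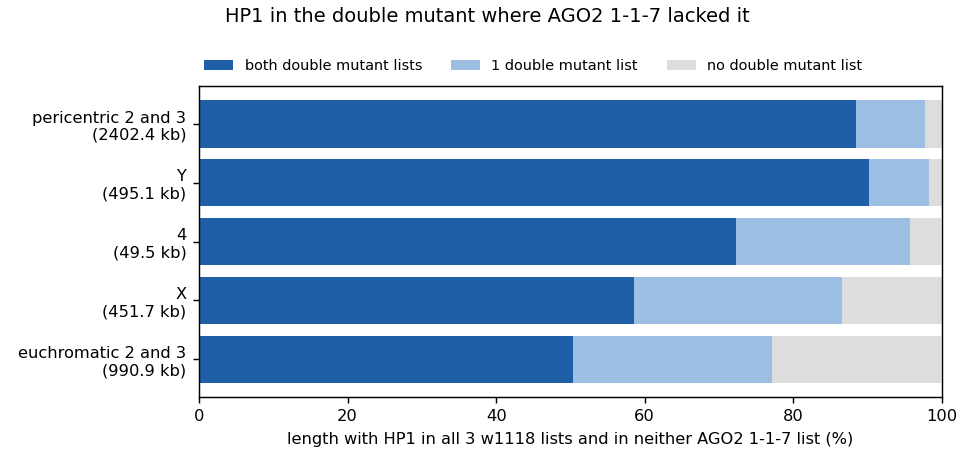
Share (horizontal axis, percent of length) of the loci with HP1 in all 3 w1118 lists and in neither AGO2 1-1-7 list that had HP1 in both, 1 or no double mutant lists, by compartment (vertical axis, with the length in kb). The dark part is 88.4% on the pericentric arms and 90.2% on Y but 50.4% in euchromatin.

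The same loci were marked by H3K9 methylation in w1118. Islands of H3K9me2 in the 3 w1118 libraries covered 95.3%, 84.5% and 80% of the pericentric loci, and islands of H3K9me3 covered 80.8%, 95.4% and 93.7%. Loci that kept HP1 in all 4 lists were covered at 90.0% to 97.8% by either mark. Where HP1 was in none of the 4 lists, the values were 5.59% to 18.4%. In the Top3b26 single mutant, HP1 covered 59.9%, 62.6% and 95.6% of the pericentric loci, so its replicates disagreed, and H3K9me3 covered 90.8% to 91.1%. Neither mark was profiled in AGO2 1-1-7 or in the double mutant among the samples used here.

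Islands of Top3b and of FLAG-tagged AGO2 were nearly absent from the pericentric loci. The 3 Top3b libraries of w1118 covered 0%, 0.443% and 1.49% of the pericentric loci that had HP1 in the double mutant and not in AGO2 1-1-7. The loci with HP1 in all 4 lists were covered at 0.183%, 12.1% and 21.5%. FLAG-AGO2 covered 0.0457% and 0.0949% of the first kind, and the FLAG antibody in untagged w1118 flies, which has no target there, covered 0.211%. Pericentric loci with HP1 in all 4 lists were covered at 7.25% and 0.51% by FLAG-AGO2 and at 12.8% by the untagged control. The euchromatic loci of the double mutant alone had 15.1% and 0.342% for FLAG-AGO2, 17.1% for the untagged control and 4.39%, 7.32% and 0.157% for Top3b, so FLAG-AGO2 did not exceed its control in either place.

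Some families of transposable elements differed widely between the groups. Transposable elements were named from the family part of their annotation, and families were picked after the values were seen, so these values are a description. The F element is a retrotransposon of the LINE class, and gypsy, springer and HMS-Beagle are retrotransposons with long terminal repeats. Over the 86 annotated F copies (286.7 kb), HP1 covered 7.01% and 31.7% in AGO2 1-1-7 and 88.1% and 84.4% in the double mutant, beside 87.3% to 92.7% in w1118. Both AGO2 1-1-7 lists thus lay below those of the double mutant and of w1118. For the 22 gypsy copies the shares were 5.39% and 8.25% in AGO2 1-1-7 and 74.1% and 88.7% in the double mutant. In Top3b26 alone gypsy copies were covered at 15.9%, 21.6% and 91.2%, so 2 of 3 single mutant libraries were also low there. The 22 springer copies had 1.81% and 13.3% against 77.8% and 81.8%, and the 24 HMS-Beagle copies 16.2% and 32.5% against 85.0% and 79.5%. All 5889 annotated elements together were at 23.7% and 26.5% in AGO2 1-1-7 and 45.3% and 41.5% in the double mutant.

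Copies of a family are not independent loci. The 3 longest euchromatic stretches include 2 in springer copies, 2L 3251501 to 3257500 and 3L 20476801 to 20482800, and these copies are 99.19% identical, so reads can fit both. At mapping, reads with 2 or 3 hits were given a part of their weight at each place and reads with more hits were not counted. Whether the island calls used these weights is not stated, so islands over repeats carry that limit. The third, 2R 5048201 to 5055500, lay fully within elements of the accord2, diver2 and gypsy families. HP1 covered all 3 stretches at 100% in every w1118 list. Elements made up 56.8% of the euchromatic loci against 4.71% of all euchromatin. This was near the 53.3% of euchromatin with HP1 in all 4 lists, so a high share of elements was not particular to the loci of the double mutant alone. Elements made up 11.0% of the pericentric loci against 12.6% of all pericentric bases. Within pericentric heterochromatin, 10 of 27 F insertions and 7 of 11 gypsy insertions lay at least 50% inside the loci, beside 151 of all 972 insertions (15.5%).

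The dodeca repeat of 3R printed above was followed in each list. The word CCCGTACT or its reverse complement AGTACGGG occurred at least 2 times in 2224 windows of 100 bp, or 0.162% of all windows, and 2218 of them were on 3R, or 0.691% of that arm. The array was chosen after its values were seen. HP1 covered 5.91% and 42.6% of these 3R windows in AGO2 1-1-7 and 86.9% and 87.2% in the double mutant. In w1118 the shares were 94.6%, 35.3% and 69.2%, so the spread between control libraries was wide. The windows formed 11 blocks of 5 kb or more, and AGO2 1-1-7 replicate 1 had no HP1 in 9 of them. Replicate 2 covered from 0% to 98.2% of these 9 blocks, so the replicates disagreed there. Over all the 3R windows replicate 2, at 42.6%, lay above w1118 replicate 2, at 35.3%. In the block at 3R 498901 to 507200 both AGO2 1-1-7 lists were at 0% and the double mutant lists at 100% and 97.6%, but w1118 replicate 2 was also at 0%.

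**Figure D4:**
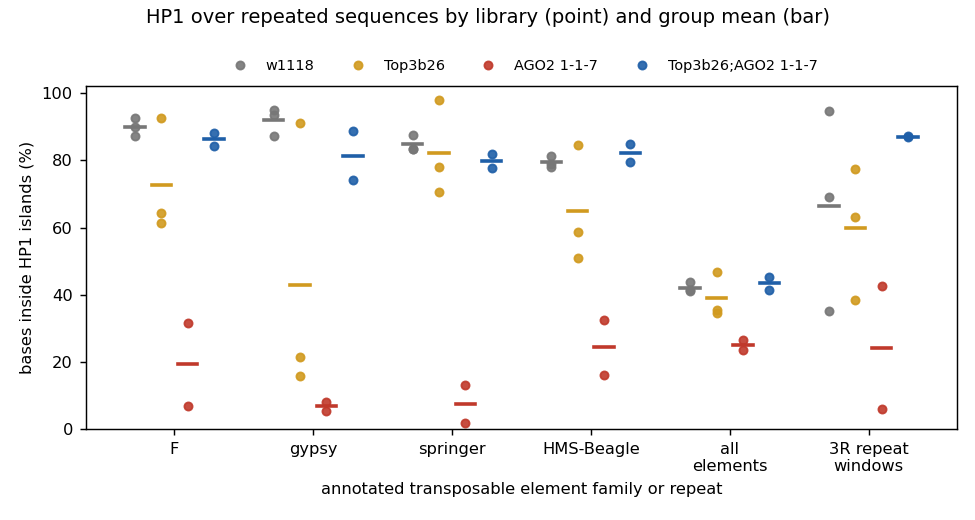
Percentage of bases inside HP1 islands (vertical axis) over the copies of 4 transposable element families, all annotated elements and the 3R windows with the dodeca word (horizontal axis), with 1 point per library and a bar at each group mean. For the 4 families both AGO2 1-1-7 points are at most 32.5% and both double mutant points at least 74.1%.

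The longest single loci were mostly outside exons. On 2L, 22424101 to 22439500 is 15.4 kb long, holds no annotated gene, and was covered at 100% in all w1118 lists. Another on 2L, 23123301 to 23131100, was covered at 28.2% to 29.5% in the w1118 lists of the main set. The w1118 library of the complementation set covered 100% of it, so the control libraries disagreed there. On 2R, 477301 to 489200 lay in an intron of DIP-lambda, which codes for a cell surface protein of the immunoglobulin family, and 4137401 to 4145800 held no gene. On 3L, 23602601 to 23611400 lay in an intron of AGO3, the Argonaute of the piRNA pathway, with 74.4% of its length in flea and G5 elements. The other on 3L, 27338401 to 27346700, lay in an intron of Dbp80, an RNA helicase gene. On 3R the stretches were the dodeca arrays at 283601 to 293300 and 498201 to 507000. The w1118 lists covered the first at 100%, 24.7% and 87.6% and the second at 92.0%, 0% and 34.1%. The w1118 library of the complementation set covered them at 13.4% and 48.9%, so the control libraries disagreed there too.

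On Y the longest stretches, 1075701 to 1088700 and 1946601 to 1959300, held no annotated gene and were covered at 98.5% to 100% in w1118. On X both lay near the base of the chromosome. One, 21785001 to 21793900, overlaps lncRNA:flam, the flamenco locus, a source of piRNAs against retrotransposons of the gypsy group in the ovary. Over the whole of lncRNA:flam (21631891 to 21790731), HP1 covered 7.74% and 15.2% in AGO2 1-1-7, 51.4% and 44.8% in the double mutant and 42.3% to 50.6% in w1118. Both AGO2 1-1-7 lists therefore lay below the lists of both other lines.

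Chromosome 4 held the longest locus of the genome. It spans 753901 to 771500 within bt, which codes for the giant muscle protein projectin, and 87.1% of it is exon. HP1 covered 74.4%, 100% and 100% of it in w1118. The whole gene bt was covered at 3.84% and 4.42% in AGO2 1-1-7 and at 38.0% and 57.0% in the double mutant. The next, 694101 to 699400, overlaps myo, which codes for a ligand of the TGF-beta family, and ey, the Pax6 gene of eye development.

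Genes were then counted. A gene was taken as having HP1 in a list when islands covered at least 50% of its span. Of 170 pericentric genes, 44 (25.9%) met this in both double mutant lists and in neither AGO2 1-1-7 list, 23 did in all 4 lists and 57 in none. The shares were 6.19% of genes on Y, 4.24% on chromosome 4, 0.533% on X and 0.425% in euchromatin of chromosomes 2 and 3. Over all 18277 genes 135 (0.739%) met the rule and 14 (0.0766%) met the opposite rule. The count of 135 became 292 without AGO2 1-1-7 replicate 2, 405 without double mutant replicate 1 and 203 without double mutant replicate 2. Among 48 pericentric genes coding for protein that all 3 w1118 lists covered, 29 were in neither AGO2 1-1-7 list, and of these 27 were in both double mutant lists and 2 in 1.

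Essential genes that lie in heterochromatin need this surrounding to be expressed, as is known from classical rearrangements of light and rolled. Of 18 such genes matched in the annotation, 8 had HP1 over at least 50% of their span in both double mutant lists and in neither AGO2 1-1-7 list, 2 in all 4 lists and 3 in none. This is beside 25.9% of all pericentric genes, and 4 of the 18 lie beyond the pericentric borders used. The median difference of the list was 20.3 points against 22.1 points over all 170 pericentric genes. The light gene lt, which acts in transport to lysosomes, was covered at 38.2% and 33.3% in AGO2 1-1-7 and at 59.1% and 64.0% in the double mutant. The rolled gene rl, which codes for the ERK kinase, had 34.1% and 29.0% against 50.6% and 53.3%. For Spf45, a splicing factor gene, the values were 0% and 12.3% against 100% and 100%. In contrast, vtd, which codes for the cohesin subunit Rad21, was at 56.2% and 45.5% in AGO2 1-1-7 and 57.6% and 43.2% in the double mutant, and its groups overlapped.

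Other heterochromatic genes, many of them active in neurons, were listed separately. Of 12 matched genes, 7 met the rule, beside 44 of all 170 pericentric genes (25.9%), while 1 reached 50% in both double mutant lists and 1 AGO2 1-1-7 list, and 3 in none. The list was chosen with earlier results known, and nothing particular to it follows from the count. Snap25, a SNARE gene of synaptic vesicle release, was covered at 30.4% and 31.4% in AGO2 1-1-7 and at 67.2% and 61.5% in the double mutant. For lovit, which codes for a transporter that photoreceptors use for histamine, the values were 27.8% and 39.5% against 74.3% and 64.6%. AGO3 had 27.1% and 29.0% against 67.3% and 67.5%. These genes are long and mostly intron, so their coverage reflects introns. Of the list, jing and tx lie outside pericentric heterochromatin, and tx had no HP1 in any of the 4 lists.

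**Figure D5:**
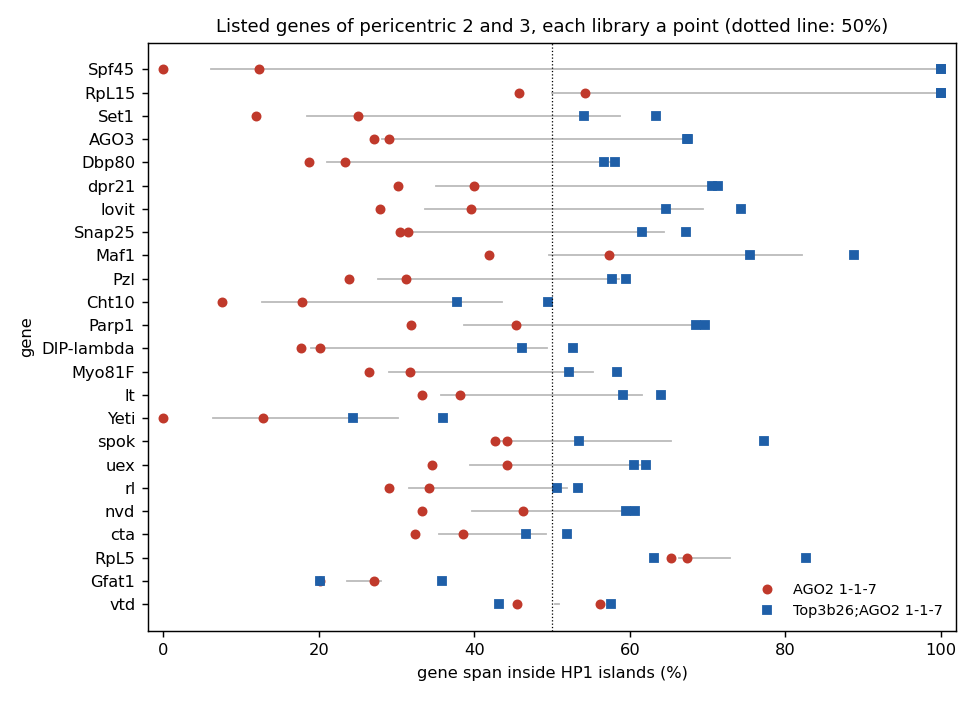
Percentage of the gene span inside HP1 islands (horizontal axis) for the 24 listed genes that lie in pericentric heterochromatin (vertical axis), with circles for the 2 AGO2 1-1-7 libraries, squares for the 2 double mutant libraries and a dotted line at 50%. Squares lie to the right of both circles for most genes, with RpL5, Gfat1 and vtd as the genes whose libraries overlap or touch.

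Of 11 Y genes for male fertility, 0 met the rule and all 11 were under 50% in the lists of AGO2 1-1-7 and the double mutant. In the Top3b26 single mutant, replicate 3 covered kl-3 at 55.2% and Ppr-Y at 51.4%. The dynein heavy chain gene kl-3, needed for sperm tails, was covered at 11.5% and 22.1% in AGO2 1-1-7 and at 49.1% and 37.5% in the double mutant. For ORY the values were 6.71% and 14.3% against 41.3% and 39.0%. Pp1-Y1 and Pp1-Y2, short phosphatase genes, were at 0% in all 4 lists. The 7 Y genes that met the rule were noncoding, and 4 of them were copies of Su(Ste), the repeats that silence Stellate in the male germline. All 27 Su(Ste) copies together were covered at 63.0% and 52.2% in AGO2 1-1-7 and at 100% and 76.7% in the double mutant.

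On chromosome 4 most genes had HP1 in all 4 lists. Over all 118 genes of the chromosome, 71 (60.2%) were covered at least 50% in all 4 lists. Of 13 matched genes of a mixed list, which holds signalling and synaptic genes beside others such as RpS3A, a ribosomal protein gene, and the DNA repair gene Rad23, 10 were covered at least 50% in all 4 lists and 1, the semaphorin receptor gene PlexB, met the rule with 46.7% and 47.6% in AGO2 1-1-7 and 55.6% in both double mutant lists. The GW182 gene gw, which acts in silencing by microRNAs, was at 100% and 96.9% in AGO2 1-1-7 and at 91.4% and 80% in the double mutant. Of 10 transcription factor genes, 2, ci and onecut, had HP1 in all 4 lists and 6 in none. The ci gene, which codes for the effector of Hedgehog signalling, was at 100% and 97.4% in both groups. The share of chromosome 4 genes that met the rule, 4.24%, rested on 5 of 118 genes, of which PlexB and myo code for protein.

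Genes of the small RNA pathway and of the HP1 pathway were covered about as rarely as other genes. Of 18 small RNA pathway genes, 1 (AGO3) met the rule and 17 were under 50% in all 4 lists, beside 92.9% of all genes and 94.7% of euchromatic genes under 50%. Among these, piwi, the nuclear Argonaute of the piRNA pathway, was at 0% in both AGO2 1-1-7 lists, 46.4% and 48.3% in the double mutant and 77.1% to 79.0% in w1118. None of the 14 genes for HP1 and H3K9 methylation met the rule, and the gene of HP1 itself was at 0% in all 4 lists. The median difference of both lists was 0 points, as over all genes. The 4 genes at the end of 3L (Lsp1gamma, CG13405, mthl8 and Pdk1) were at 0% in all 4 lists. Lsp1gamma and CG13405 were at 0% in every w1118 and Top3b26 list as well. In w1118, mthl8 was at 38.9%, 12.2% and 1.88% and Pdk1 at 13.1%, 55% and 0%. In Top3b26, mthl8 was at 100% in every list and Pdk1 at 0%, 19.2% and 0%. Among 10 housekeeping genes of euchromatin, none met the rule, and alphaTub84B was covered at 100% in double mutant replicate 2 and at 0% in the other 3 lists.

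Of the 97 genes coding for protein that met the rule, 25 were at 0% in both AGO2 1-1-7 lists. In pericentric heterochromatin dunk, a gene of early embryonic cell division, was the single one, at 62.9% and 82.5% in the double mutant and 0%, 82.5% and 100% in w1118. In euchromatin the longest were Muc30E, a mucin gene, at 65.6% and 88.2%, CG10859 at 100% and 64.8%, and BEAF-32, which codes for a boundary element factor, at 70.9% and 66.2%. On X the longest was CG11700 (6282037 to 6283575), at 100% in both double mutant lists and all 3 w1118 lists, which neighbours Top3beta. The next were CG44532 and Ste:CG33247, a copy of Stellate, which was at 100%, 0% and 0% in w1118. The 12 Stellate copies together were at 82.7% and 5.82% in the double mutant and 0% in both AGO2 1-1-7 lists. Stellate is a repeated gene, and how far reads of its copies can be told apart was not tested.

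HP1 stayed absent from few pericentric loci that had it in w1118. Pericentric length with HP1 in all 3 w1118 lists and in none of the 4 mutant lists was 54.4 kb in 87 stretches, of at most 2600 bp. The 3 longest were 3L 25351901 to 25354500 in lovit, whose piece is printed above, and 3R 472201 to 474000 and 3656901 to 3658700, with no annotated gene. Islands of H3K9me3 in w1118 covered 100% of the first in all 3 libraries, while H3K9me2 covered 61.5%, 3.85% and 11.5%. In euchromatin 225.3 kb in 243 stretches stayed without HP1, up to 8100 bp long. The longest genes of this kind, covered at least 50% in all w1118 lists and under 50% in the 4, were dati, CG12581, sei, piwi and Act5C. For some of them HP1 was present in the double mutant just under the 50% limit. The values there were 47.4% and 41.6% for dati, 37.3% and 41.8% for CG12581 and, as given above, 46.4% and 48.3% for piwi. In contrast, sei, which codes for a potassium channel of the ERG family, was at 0% in all 4 lists and at 54.9% to 80.4% in w1118. The actin gene Act5C was at 0% in 3 of the 4 lists and at 3.08% in double mutant replicate 2.

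The opposite loci, with HP1 in both AGO2 1-1-7 lists and in neither double mutant list, were short and lay mostly outside heterochromatin, with 65 kb in euchromatin of chromosomes 2 and 3, 45.5 kb on X and 14.9 kb on chromosome 4. Without AGO2 1-1-7 replicate 1 the euchromatic length was 1244.1 kb and 207 genes in place of 14 met the opposite rule. The longest were 3.5 kb in sdt on X (8224701 to 8228200), 2.8 kb in an intron of kek5 on X with FB elements (19357001 to 19359800), and 2.4 kb in fru on 3R (18421201 to 18423600). The pericentric ones were at most 700 bp. Of the 65 kb in euchromatin, 78.3% lay inside islands of the FLAG antibody in untagged w1118 flies. That share was 17.1% for euchromatic loci of the double mutant alone and 14.2% for euchromatin with HP1 in none of the 4 lists. It was 36.8% for euchromatic loci with HP1 in all 4 lists. Where HP1 was in both double mutant lists and 1 AGO2 1-1-7 list it was 54.5%, so this overlap was not particular to the opposite loci. H3K9me3 of w1118 covered 0.154% to 2.15% of the opposite loci in euchromatin and 58.2% to 74.3% of the loci of the double mutant alone. No gene coding for protein went from 0% in both double mutant lists to 50% or more in both AGO2 1-1-7 lists. The 14 genes that met the opposite rule at 50% included the pericentric gene BckdhB, at 58.9% and 56.9% in AGO2 1-1-7 and 48.5% and 46.9% in the double mutant.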

How the data were processed

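HP1 ChIP-seq libraries of fly heads, 2 of AGO2 1-1-7 and 2 of Top3b26;AGO2 1-1-7, were compared. Per the study's methods, the authors mapped reads to dm6 with Bowtie (Bowtie2 in the submitters' processing notes), gave reads with 2 or 3 hits a part of their weight, dropped those with more hits, and called islands over input with SICER (window 100 bp, gap 600 bp). Every deposited list gives positions and a whole-number score, whose unit and scaling for depth no source used here gives. The smallest distance between islands was 700 bp in the 4 lists but 1100 bp in replicates 2 and 3 of w1118 and of Top3b26. Whether all lists were called with the same gap was not tested. Islands with a score of 200 or more were kept, as in the study, on a grid of 100 bp (Python 3.11.15, NumPy 2.4.6), and pieces within 600 bp were joined into stretches.

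Coverage is the percentage of bases inside islands, with the pericentric borders of the study. Group means were compared by exact permutation over the 4 libraries, adjusted by Benjamini and Hochberg over 5 compartments. The loci and genes were described without a test. Genes and elements came from BDGP 6.54, release 115, and sequences from the RefSeq Release 6 assembly, which is dm6. Genes named were Top3beta, AGO2, members of 9 lists and the longest stretches and genes of each kind in each compartment, whereas repeat families and Su(Ste) were picked after their values were seen. Members and lists were chosen with earlier results of these data known. Of the lists, Parp, Cht3, laccase2 and Caps matched no gene name. The repeats of a line were treated as separate ChIP experiments. With 2 libraries a group, an exact p-value ranks the observed grouping among all regroupings. It does not measure the size of a difference or the spread between libraries. Overlap steps were tested on simulated lists. Alternatives were no minimum score, a minimum of 400, equal numbers of islands, other overlap rules, each library left out and a replicate block. Unplaced scaffolds and the 22 input samples were not analysed here.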

Additional observations from a re-analysis of the deposited data

How the results depend on the processing

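Coverage differences kept their direction in 39 of 40 alternative values. With each library left out in turn, the pericentric difference ranged from 28.1 to 33.3 points, Y from 22.6 to 32, chromosome 4 from 2.87 to 12, X from 0.045 to 4.6 and euchromatin from -0.34 (without AGO2 1-1-7 replicate 1) to 2.48. With the replicate number as a block (replicate block), the pericentric difference stayed 30.7 points with an exact permutation p of 0.5, the smallest that 2 pairs allow. Deviations of same-numbered libraries correlated at 0.124 over 150 pericentric windows, so the numbers were not taken to pair the libraries.

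With each library left out, length with HP1 in the double mutant alone ranged from 3321.9 to 4304.7 kb in pericentric heterochromatin, 827.3 to 1706.9 kb in euchromatin, 443.1 to 837.8 kb on X, 672.5 to 998.1 kb on Y and 80.8 to 126.3 kb on chromosome 4. Values over 1.5 times the reported length came without AGO2 1-1-7 replicate 2 (4304.7 kb pericentric, 1485.9 kb euchromatin, 704.5 kb X), double mutant replicate 1 (1706.9 and 837.8 kb for euchromatin and X) and double mutant replicate 2 (598.1 kb X, 998.1 kb Y), and without each library on chromosome 4. Length with HP1 in AGO2 1-1-7 alone ranged from 3 to 69.6 kb pericentric, 115.1 to 1244.1 kb in euchromatin, 62 to 534.9 kb on X, 1.4 to 7.4 kb on Y and 17.1 to 51.3 kb on chromosome 4. Without a library fewer lists have to meet the rule, so longer lengths follow from its construction. Genes of the double mutant alone ranged from 164 to 405 and those of AGO2 1-1-7 alone from 23 to 207.

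With no minimum score, 52.3% of pericentric double mutant islands were missing from an AGO2 1-1-7 list, and AGO2 1-1-7 alone held 104.8 kb of euchromatin and 71.7 kb of X. With a minimum of 400 these were 62.2%, 35.1 kb and 22 kb, with 0.9 kb on Y. With equal numbers of islands the shares of double mutant islands missing were 52.9% (pericentric) and 22.9% (chromosome 4), those of AGO2 1-1-7 islands 3.17% (pericentric) and 4.46% (Y), and AGO2 1-1-7 alone held 1 kb of Y. Counting as missing only islands with no shared base gave 39.1% (pericentric) and 48.5% (Y) for the double mutant and 1.63% for AGO2 1-1-7 on Y. Any covered base in place of 50% gave 257 and 38 genes for the double mutant alone and AGO2 1-1-7 alone, and 80% gave 86 for the first. Beyond what the rules themselves set, the cause of these shifts was not tested. Having 2 libraries a group and unknown depth limit every statement, since an island missing from a list may lie below the threshold of that library.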
